A study of Mus musculus with 5 samples.

Results

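The genes described here are dual-specificity MAP kinase phosphatases, followed through a block of translation initiation in mouse brain slices. They were chosen by symbol: Dusp1, Dusp4, Dusp5, Dusp6, Dusp8 and Dusp14, of which 5 were matched among the 10329 genes of the count table. Dusp14 was not analysed here. Hippocampal-cortical slices came from wild-type male C57BL/6N mice at postnatal days 28 to 35, and all libraries share that strain, sex and genotype. Slices 400 µm thick recovered for 3 to 4 h and then received 20 µM homoharringtonine (HHT) for 0, 5, 10, 30 or 60 min, with 0.05% DMSO as the vehicle. Each library was 1 pool of 10 slices from 2 to 3 mice, so each time point is 1 library without a replicate. No slices held in vehicle alone for 5 to 60 min were analysed here, so time on HHT and time after slicing cannot be told apart.

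MAP kinases are switched on when an upstream kinase adds phosphate to a threonine and a tyrosine of their activation loop, and dual-specificity phosphatases remove both. Many of the phosphatase genes are themselves induced by MAP kinase signalling, which makes them part of a negative feedback loop, and in neurons several are switched on by synaptic activity or injury. Ribosome profiling sequences the mRNA fragments that ribosomes protect from nuclease, called footprints. HHT stops ribosomes that have just begun a coding sequence while those already elongating run off, so the footprints left on an mRNA fall with time and do so later on long coding sequences.

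The 5 measured genes lie on 5 chromosomes of GRCm38.p6. Dusp1 (NM_013642) spans chr17:26505591-26508472, Dusp4 (NM_176933) chr8:34807610-34819894 and Dusp5 (NM_001085390) chr19:53529145-53541809. Dusp6 (NM_026268) spans chr10:99263231-99267489 and Dusp8 (NM_008748) chr7:142079487-142095907. Their coding sequences are 1104 nt for Dusp1, 1197 nt for Dusp4, 1155 nt for Dusp5, 1146 nt for Dusp6 and 1992 nt for Dusp8. Dusp8 is thus the long one. The deposited signal is the count per kilobase of coding sequence less 600 nt, which leaves 504 nt counted in Dusp1 and 1392 nt in Dusp8.

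Promoter stretches are shown for the 3 genes whose windows hold elements known from genes induced by neuronal activity. RefSeq windows run from 250 bases before to 50 after a listed transcript start, which for Dusp8 lies inside the gene's span, and one was matched for Dusp1, Dusp5, Dusp6, Dusp8 and Dusp14. Capitals mark the cyclic AMP response element TGACGTCA, its core TGACG (both on either strand, with the core lying inside the whole) and the CArG box bound by serum response factor. Coordinates are those of GRCm38.p6 and the bases are written on the gene's own strand.
Dusp1, chr17:26508599-26508672, minus strand: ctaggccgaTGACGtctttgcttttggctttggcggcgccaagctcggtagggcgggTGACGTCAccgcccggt
Dusp5, chr19:53529055-53529103, plus strand: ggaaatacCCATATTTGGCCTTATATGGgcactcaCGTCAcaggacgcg
Dusp8, chr7:142095331-142095400, minus strand: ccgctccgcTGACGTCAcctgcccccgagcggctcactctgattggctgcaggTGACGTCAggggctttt
Counted from 0 at the first transcribed base, the 1 whole element of Dusp1 begins at -143 and the 2 of Dusp8 begin at -107 and -63. Dusp5 holds 2 CArG boxes side by side, beginning at -82 and -72, and 1 core at -55. The windows of Dusp6 and Dusp14 hold none of these letters. Of 27025 promoters of the same length, 1.88% hold the whole element, 21.0% a core and 1.57% a CArG box. These are matches of letters, and footprints do not measure transcription from them.

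Values given in time order are those of the libraries at 0, 5, 10, 30 and 60 min. The libraries held 7155147, 2787749, 2022152, 1504748 and 1346175 counts in that order. The 5 phosphatase genes took 3562 of them at 0 min and 535 at 60 min. Brain identity of the libraries was checked with marker genes. The summed signal of 9 measured neuronal markers was 109601 at 0 min and 26697 at 60 min, with 42007.5 and 10622 from Map2 alone. That of 8 astrocyte markers was 79556 and 8260, that of 6 oligodendrocyte markers 60622 and 4409, and that of 9 microglial markers 6314 and 299. The 6 endothelial markers summed to 508 and 97.7, and no marker of these lists had 0 counts at 60 min. The median ratio of 60 to 0 min signal was 0.249 for the neuronal list, 0.113 for astrocytes, 0.0538 for oligodendrocytes, 0.0460 for microglia and 0.200 for endothelium. The glial lists thus kept less signal than the neuronal one, and the part of this in the values below was not tested. In bulk slices, fewer cells of a type and fewer footprints per cell cannot be told apart.

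Before HHT the 5 measured genes split into 2 abundant and 3 scarcer ones. The deposited signal at 0 min was 2262 for Dusp1 and 2104 for Dusp6, above 93.5% and 92.9% of all genes. It was 665 for Dusp4, 473 for Dusp8 and 391 for Dusp5, above 77.9%, 70.5% and 65.9% of all genes. Counting intervals of Dusp1 and Dusp6 overlapped, as did those of Dusp8 and Dusp5, while Dusp6 stood 3.16 times above Dusp4 and Dusp4 1.40 times above Dusp8 with intervals apart. The order of Dusp4 and Dusp8 turned in the TPM table, which listed them at 70 and 121 at 0 min. Intervals throughout are 95% intervals from the count in each library and cover counting error only, and amplified reads are not independent molecules.

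The levels lay closer together at later times. At 0 min the highest of the 5 signals was 5.79 times the lowest, and at 60 min it was 2.96 times. Dusp1 and Dusp6 supplied 64.3% of the summed counts of these 5 genes at 0 min and 48.6% at 60 min. From 10 min on Dusp6 was first and Dusp1 was next, with counting intervals that overlapped at 10 min and were apart at 30 and 60 min. Dusp5 moved from last at 0 min to rank 3 at each treated time by this signal. Its counting interval overlapped that of Dusp8 at 0 min, and that of the gene ranked next below at each treated time. By TPM Dusp5 ranked 4 at 30 and 60 min, and Dusp1 ranked 3 at 60 min. At 60 min the signals were 299 for Dusp6, 206 for Dusp1, 141 for Dusp5, 107 for Dusp4 and 101 for Dusp8, and from Dusp1 down the intervals of each neighbouring pair overlapped.

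**Figure D1:**
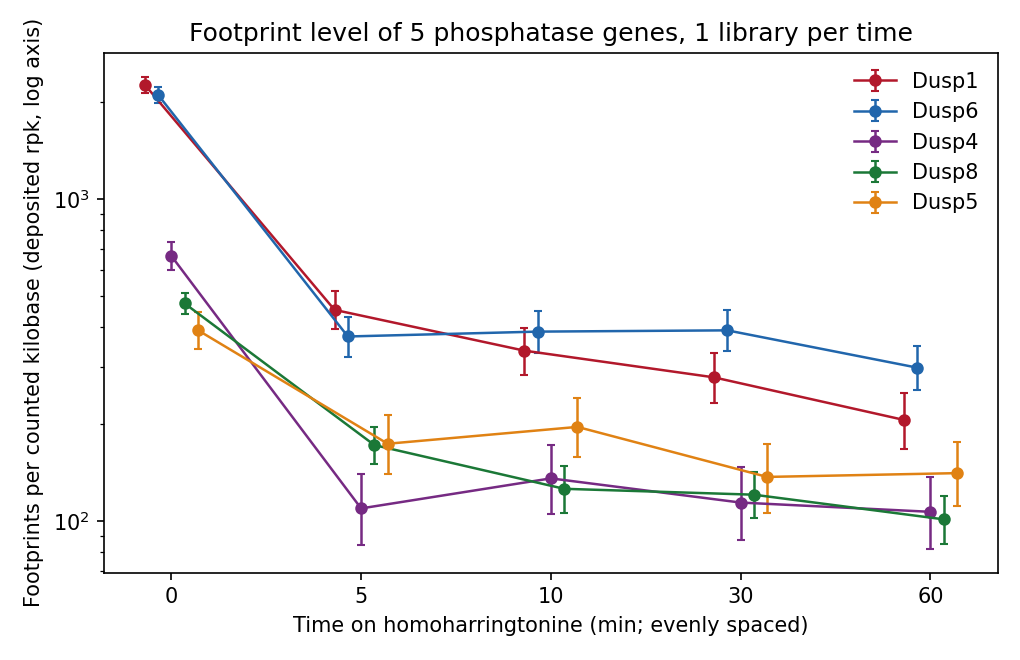
Deposited footprint signal per counted kilobase (log axis) of the 5 measured phosphatase genes at each time on HHT, with evenly spaced times, 1 library per point and 95% Poisson intervals of the counts. Dusp1 falls from 2262 to 206 and is overtaken by Dusp6, which ends at 299, while Dusp5 goes from 391 to 141.

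Dusp1 encodes an inducible nuclear phosphatase that acts on the p38, JNK and ERK kinases. Its counts in time order were 1140, 220, 141, 124 and 101. Each later library was lower than the one before. As a share of the 0 min signal, 0.200 was left at 5 min (0.172 to 0.231), 0.149 at 10 min (0.124 to 0.178), 0.123 at 30 min (0.102 to 0.149) and 0.0910 at 60 min (0.0735 to 0.112). The steps from 5 to 10 min (0.747, 0.600 to 0.927) and from 30 to 60 min (0.738, 0.562 to 0.967) had intervals below 1, and that from 10 to 30 min did not (0.826, 0.644 to 1.06). Its place among 1268 genes with a coding sequence within 10% of its own length moved down: 32.6%, 19.6%, 10.8% and 9.94% of them had a lower ratio at the 4 treated times in order.

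Dusp4, a nuclear phosphatase of ERK and JNK closely related to Dusp1, had 397, 63, 67, 60 and 62 counts in time order. Nearly all of its loss lay in the first 5 min, and the 4 treated libraries were close to each other. The ratio was 0.164 at 5 min (0.124 to 0.215), 0.204 at 10 min (0.155 to 0.265), 0.171 at 30 min (0.128 to 0.225) and 0.160 at 60 min (0.121 to 0.210). Each step after 5 min had an interval that included 1, from 0.841 (0.584 to 1.21) between 10 and 30 min to 1.24 (0.866 to 1.78) between 5 and 10 min. Of 1356 genes of like length, 12.6% had a lower ratio at 5 min and 41.0% at 60 min.

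Dusp5, a nuclear phosphatase specific for ERK, had the highest ratio of the 5 genes at each of the 4 treated times. In time order it had 217, 93, 90, 67 and 76 counts. The treated libraries lay well below 0 min but above what genes of its length kept. The ratio was 0.444 at 5 min (0.344 to 0.569), 0.501 at 10 min (0.387 to 0.643), 0.350 at 30 min (0.262 to 0.463) and 0.360 at 60 min (0.273 to 0.469). Among 1363 genes of like length the median was 0.242, 0.220, 0.216 and 0.174 at the same times, and 92.2%, 93.3%, 84.5% and 91.8% of them had a lower ratio than Dusp5. The bounds of its counting interval correspond to 82.1% and 96.6% of those genes at 60 min, and to 66.4% and 93.6% at 30 min.

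Dusp6 encodes a cytoplasmic phosphatase specific for ERK whose gene is a widely used readout of ERK activity. It started at 1149 counts, beside the 1140 of Dusp1, and had 197, 175, 188 and 159 at 5, 10, 30 and 60 min. Its signal dropped in the first 5 min and then held a plateau through 30 min. The ratio was 0.178 at 5 min (0.152 to 0.207), 0.184 at 10 min (0.156 to 0.216), 0.186 at 30 min (0.158 to 0.217) and 0.142 at 60 min (0.120 to 0.168). Steps of 1.04 (0.840 to 1.28) and 1.01 (0.817 to 1.25) made up the plateau, and the last step, 0.766 (0.616 to 0.951), had an interval below 1. Of 1353 genes of like length, 19.8%, 34.1%, 36.1% and 31.4% had a lower ratio at the treated times in order.

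Dusp8, a phosphatase of JNK and p38 kinases that is prominent in brain, had 659, 231, 145, 148 and 137 counts in time order. Its loss was spread over the first 10 min. The ratio was 0.363 at 5 min (0.311 to 0.423), 0.266 at 10 min (0.220 to 0.318), 0.255 at 30 min (0.212 to 0.305) and 0.214 at 60 min (0.176 to 0.257). The step from 5 to 10 min was 0.732 (0.590 to 0.904), while the later steps of 0.959 (0.757 to 1.21) and 0.838 (0.660 to 1.07) included 1. Its ratio at 5 min was near that of its length class: the median of 1196 genes of like length was 0.354, and 53.6% of them had a lower ratio than Dusp8. At 60 min 66.8% did.

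**Figure D2:**
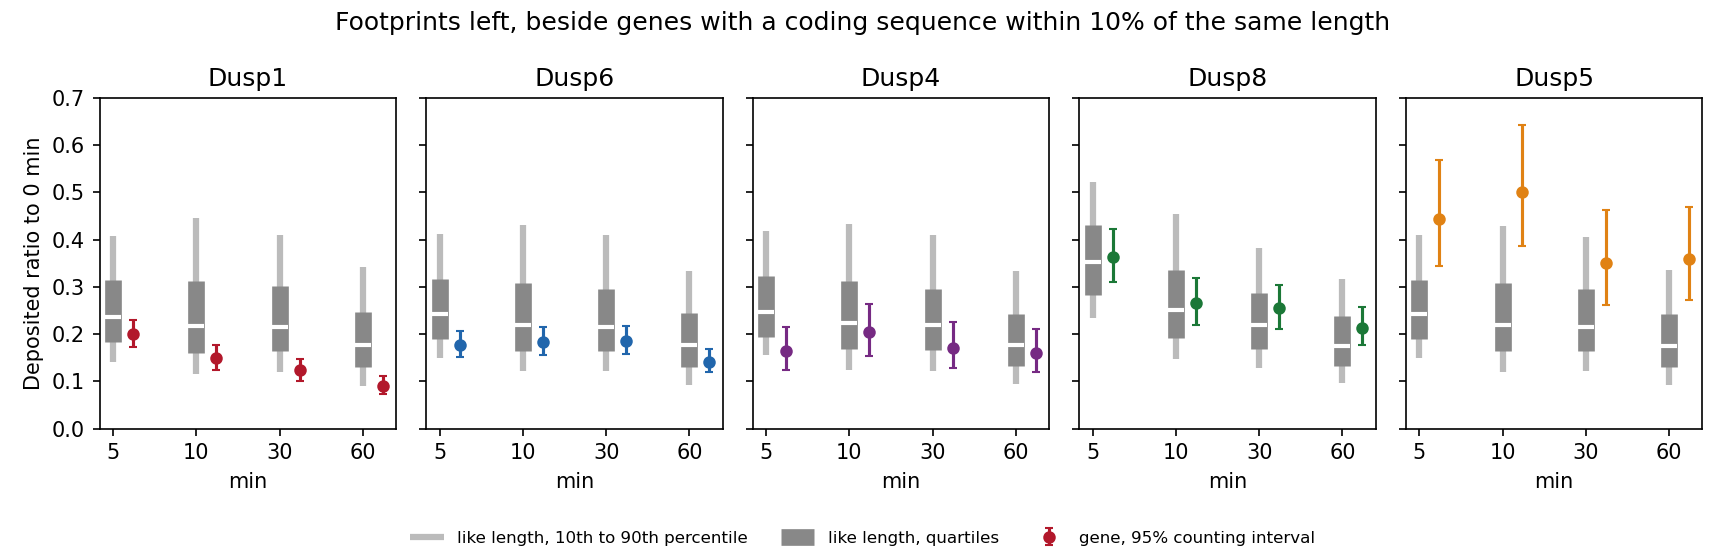
Share of the 0 min signal left (ratio of deposited signals) at 5, 10, 30 and 60 min for each gene, with 95% counting intervals, beside the 10th to 90th percentiles, quartiles and median (white dash) of all genes whose coding sequence is within 10% of the same length. Dusp1 ends at 0.0910 against a median of 0.178, Dusp5 stays above the upper quartile at each time, and Dusp8 lies near the median at 5 and 10 min.

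Pairs of genes were compared by whether their counting intervals for these ratios were apart, which is a description and no test. Of 10 pairs, 6, 6, 5 and 8 were apart at the treated times in order. The share of all gene pairs that were apart was not computed, so these counts do not set the 5 genes apart. Pairs apart at 5 min include those of Dusp8, with its longer coding sequence, with Dusp1, Dusp4 and Dusp6. The median ratio of genes of like length was then 0.354 for Dusp8 and 0.237 for Dusp1, and the part of length was not tested. The ratio of Dusp5 was 2.50 times that of Dusp6 at 5 min and 2.53 times at 60 min, although both act on ERK and their coding sequences are 1155 and 1146 nt long. Dusp1 and Dusp6 went apart with time. Their ratios overlapped at 5 and 10 min, and at 60 min that of Dusp1 was 0.640 times that of Dusp6 with intervals apart. Dusp4 and Dusp6 overlapped at each of the 4 times.

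A slope, in log2 signal for each unit of log2(minutes + 1), was tested over all 5 libraries with edgeR's quasi-likelihood test, fitted on the 9444 genes with a mean of at least 10 counts, which the 5 phosphatase genes all passed. With the library factors behind the deposited signal, all 5 fell (Benjamini-Hochberg adjusted p under 0.05), as did 94.2% of all genes, so this share does not set them apart. The slope of Dusp1 was -0.57 (SE 0.0767, adjusted p = 1.69e-04), with a lower signal at 4 of 4 treated times. That of Dusp6 was -0.45 (SE 0.0841, adjusted p = 3.85e-04) and that of Dusp4 -0.44 (SE 0.0910, adjusted p = 6.47e-04). Dusp8 had -0.37 (SE 0.0727, adjusted p = 5.02e-04) and Dusp5 -0.25 (SE 0.0789, adjusted p = 0.00789). The calls rest on the 0 min library: without it 2 of the 5 passed, Dusp1 (slope -0.31, adjusted p = 0.00235) and Dusp8 (-0.20, adjusted p = 0.0485), and without it 4114 genes were called lower in place of 8900. On minutes in place of log2(minutes + 1), 0 of the 5 and 24 of all genes passed.

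Relative to other mRNAs, with TMM scaling, none of the 5 slopes passed, where 0.0106% of all genes were called lower and 0% higher. The slope was -0.17 for Dusp1 (SE 0.0572, adjusted p = 0.277, unadjusted p = 0.0171) and 0.15 for Dusp5 (SE 0.0635, adjusted p = 0.364, unadjusted p = 0.0366). At an unadjusted p under 0.05 this is 1 gene lower and 1 higher of 5, where 5.48% and 6.75% of all genes were. Dusp6 (-0.04, SE 0.0679), Dusp4 (-0.03, SE 0.0705) and Dusp8 (0.03, SE 0.0567) had slopes smaller than their errors. The sign for Dusp4 and Dusp6 turned without the 0 min library, to 0.22 (adjusted p = 0.118) and 0.18 (adjusted p = 0.145). DESeq2's Wald test called 0 of the 5 in either direction.

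Folds on the same TMM scale carry no p-value. The scale is set by mRNAs of all lengths, and shorter coding sequences stood lower at 5 min. The median deposited ratio was then 0.333 over all genes but 0.237 among genes of like length to Dusp1. For Dusp4, Dusp5 and Dusp6 the like-length median was 0.247, 0.242 and 0.242. At 60 min it was 0.181 over all genes and 0.178 for the length of Dusp1. The part of length in these folds was not tested. Dusp1 was below the typical mRNA at each treated time, with log2 folds of -0.73, -0.83, -0.87 and -1.0 (-1.32 to -0.71 at 60 min). Dusp5 was above it, with 0.41, 0.89, 0.62 and 0.96 (0.58 to 1.36 at 60 min). Dusp4 went from -1.0 at 5 min (-1.42 to -0.63) to -0.19 at 60 min (-0.60 to 0.20), and Dusp6 from -0.90 (-1.13 to -0.68) to -0.36 (-0.61 to -0.12). Dusp8 had 0.13, -0.0041, 0.17 and 0.22, each with an interval that included 0. A fold of at least 2 was reached by 1 of the 5, Dusp1 at 60 min and lower, by a margin smaller than its counting error, where 5.08% of all genes with at least 100 counts over the pair of libraries were that much lower. At 5, 10 and 30 min 0 of the 5 were 2-fold lower, where 5.77%, 5.68% and 4.42% of genes were, and 0 were 2-fold higher at any time, where 6.11%, 13.1%, 3.92% and 4.54% were. On the deposited ratio, which keeps the loss common to all mRNAs, 5, 4, 5 and 5 of the 5 were at least 2-fold lower, where 76.3%, 84.5%, 97.3% and 98.5% of genes were. On that ratio 0 of the 5 were 2-fold higher, where 0%, 0.0133%, 0% and 0% of genes were.

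**Figure D3:**
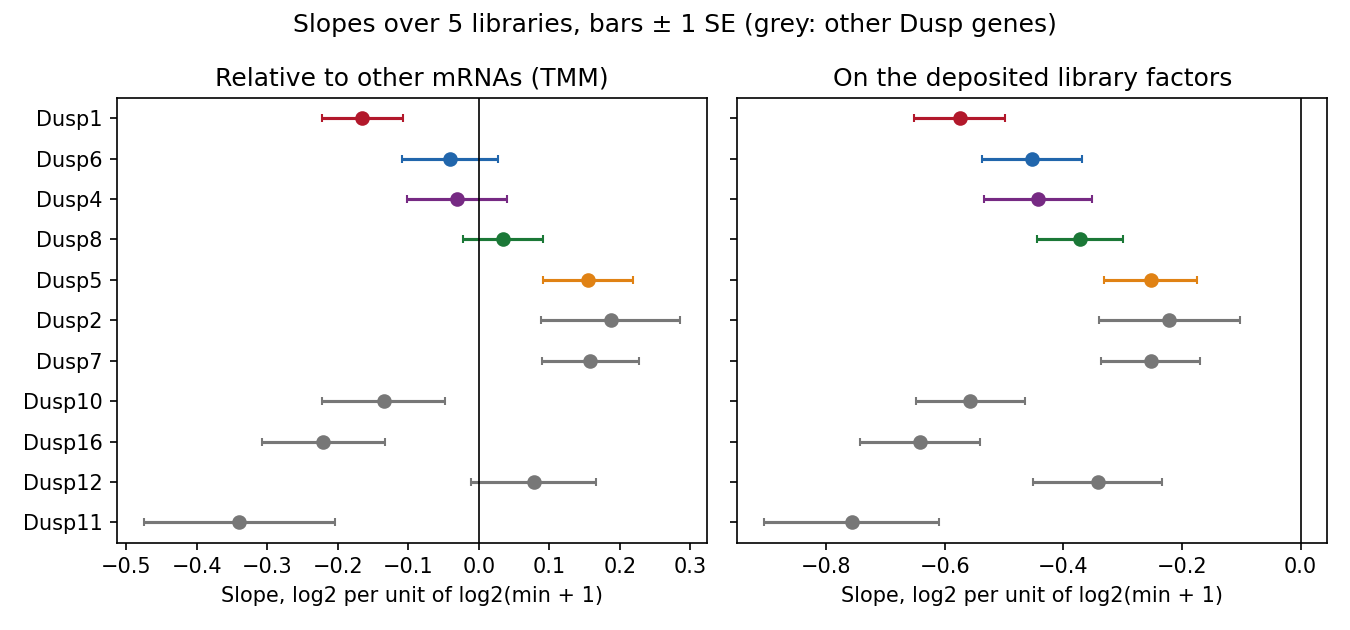
Slope in log2 units per unit of log2(minutes + 1) over 5 libraries for the 5 phosphatase genes (coloured) and 6 other Dusp genes (grey), relative to other mRNAs at left and on the deposited library factors at right, with bars of 1 SE either side. At left Dusp1 lies at -0.17 and Dusp5 at 0.15, and at right the 5 run from -0.57 to -0.25.

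The TPM table, a second deposited measure that shares these libraries, gave the same direction as the TMM folds for Dusp1, Dusp4, Dusp5 and Dusp6 at all 4 times but not for Dusp8. Dusp1 was listed at a TPM of 240, 161, 126, 122 and 107 in time order, Dusp6 at 222, 132, 144, 170 and 155, Dusp4 at 70, 38, 50, 49 and 55, and Dusp5 at 41, 61, 73, 60 and 73. Dusp8 was listed at 121, 58, 61, 97 and 145. Its log2 TPM change was -1.05 at 5 min and -0.98 at 10 min, where the TMM folds were 0.13 and -0.0041. It was -0.32 at 30 min, where the TMM fold was 0.17, and 0.26 at 60 min, where it was 0.22. By TPM Dusp8 ranked second of the 5 at 60 min, and by the signal per kilobase it ranked last. The median TPM ratio of 8100 genes with a TPM of at least 10 at 0 min was 1, 0.885, 0.900 and 0.889 at the 4 treated times.

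Genes whose 4 ratios were most like those of each phosphatase were found among 7031 other genes with at least 100 counts at 0 min, by the root mean square difference in log2 ratio. For Dusp1 they were Dazap1 (0.0324), Cd2bp2 (0.0727) and Atat1 (0.0772), and for Dusp6 Ccnh (0.0400), Ubqln1 (0.0424) and Sap30bp (0.0466). Dusp4 was nearest to Fbxo28 (0.0557), Hey1 (0.0659) and Eif2s3x (0.0688), and Dusp8 to Ggt7 (0.0371), Prkce (0.0413) and Fbxl5 (0.0417). The 3 nearest to Dusp8 have coding sequences of 1989, 2214 and 2073 nt, close to its own 1992 nt. Dusp5 was nearest to Arhgap23 (0.0761), Capn15 (0.0794) and Fam53c (0.0804), of which the first pair have coding sequences of 3834 and 3288 nt against 1155 nt for Dusp5.

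By the ratio alone, other Dusp genes ran both lower and higher at 60 min than the 5 phosphatases, whose ratios went from 0.0910 to 0.360. Those lower had counting intervals that overlapped that of Dusp1. The interval of Dusp2, the highest, overlapped that of Dusp5. Dusp7, the ERK phosphatase nearest in role to Dusp6, had 547, 136, 164, 148 and 189 counts and a ratio of 0.355 at 60 min (0.299 to 0.420), against 0.142 for Dusp6. Dusp2, an inducible nuclear phosphatase of immune cells, had 63, 10, 14, 18 and 26 counts and ratios of 0.164, 0.268, 0.324 and 0.424 (0.258 to 0.679 at 60 min). Of the JNK and p38 phosphatases, Dusp10 had 260, 66, 70, 41 and 19 counts and ended at 0.0751 (0.0445 to 0.120), and Dusp16 had 162, 38, 28, 8 and 15 counts and ended at 0.0951 (0.0520 to 0.162). Dusp8 of that class ended at 0.214 with an interval above both. Among atypical members Dusp12 had 46, 15, 17, 14 and 9 counts, Dusp11 had 92, 14, 1, 9 and 4, and Dusp15 had 11, 1, 1, 1 and 0. Their ratios at 60 min were 0.201 (0.0865 to 0.416), 0.0447 (0.0119 to 0.118) and 0 (0 to 0.409) in that order. On the deposited factors 5 of the 6 tested other Dusp genes fell, where 94.2% of all genes did, and Dusp2 did not pass (slope -0.22, adjusted p = 0.0895). Relative to other mRNAs 0 of the 6 passed, where 0.0106% of all genes were called lower and 0% higher.

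The listed MAP kinases, which include atypical ones beside the ERK, JNK and p38 kinases, had a median ratio near that of all genes. Of 14 listed MAP kinases 11 were measured, 11 of 11 fell on the deposited factors, where 94.2% of all genes did, and their median ratio was 0.165 at 60 min, beside 0.160 for the 5 phosphatases and 0.181 for all genes. Mapk6, an atypical MAP kinase, was lowest at 0.0758 and Mapk11, a p38 isoform, highest at 0.308. All 7 MAP2 kinases, which phosphorylate the MAP kinases, fell, with a median of 0.116, from Map2k3 at 0.0761 to Map2k6 at 0.214. Of the RAF and MAP3 kinases 15 of 16 tested fell (median 0.173 over 18 measured), from Map3k1 at 0.0767 to Map3k6 at 0.498. Map3k6 had only 33 counts before HHT and 16 at 60 min (0.256 to 0.931). The numbers of genes that fell in these lists are near the share over all genes.

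Of RAS proteins and their adaptors and regulators 12 of 13 fell on the same factors, against 94.2% of all genes. Their median was 0.170, from Grb2 at 0.0676 to Shc1 at 0.651. Both extremes rest on few counts: Grb2 had 152 before HHT and 10 at 60 min (0.0318 to 0.128). Shc1 had 30 and 19 (0.346 to 1.19). Scaffolds that hold MAP kinase modules together had a median of 0.298, and 4 of 5 fell. Their highest, the JNK scaffold Mapk8ip1, had 1718 counts before HHT and 797 after 60 min, a ratio of 0.477 (0.438 to 0.519) that did not pass on the deposited factors (adjusted p = 0.0525). Kinases activated by MAP kinases fell in 10 of 10 cases (median 0.162), from Mknk1 at 0.113 to Rps6ka4 at 0.384. The list drawn as ERK feedback inhibitors holds Sprouty and Spred proteins, Errfi1 and Rasa1, a RAS regulator also counted in the RAS list. Its genes fell in 7 of 7 tested cases (median 0.127 over 8 measured). They ran from Spry1 at 0.0663 (31 counts before HHT and 2 at the end, 0.00769 to 0.261) to Spred3 at 0.363. Relative to other mRNAs 0 genes of these lists passed in either direction, where 0.0106% of all genes were called lower and 0% higher.

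**Figure D4:**
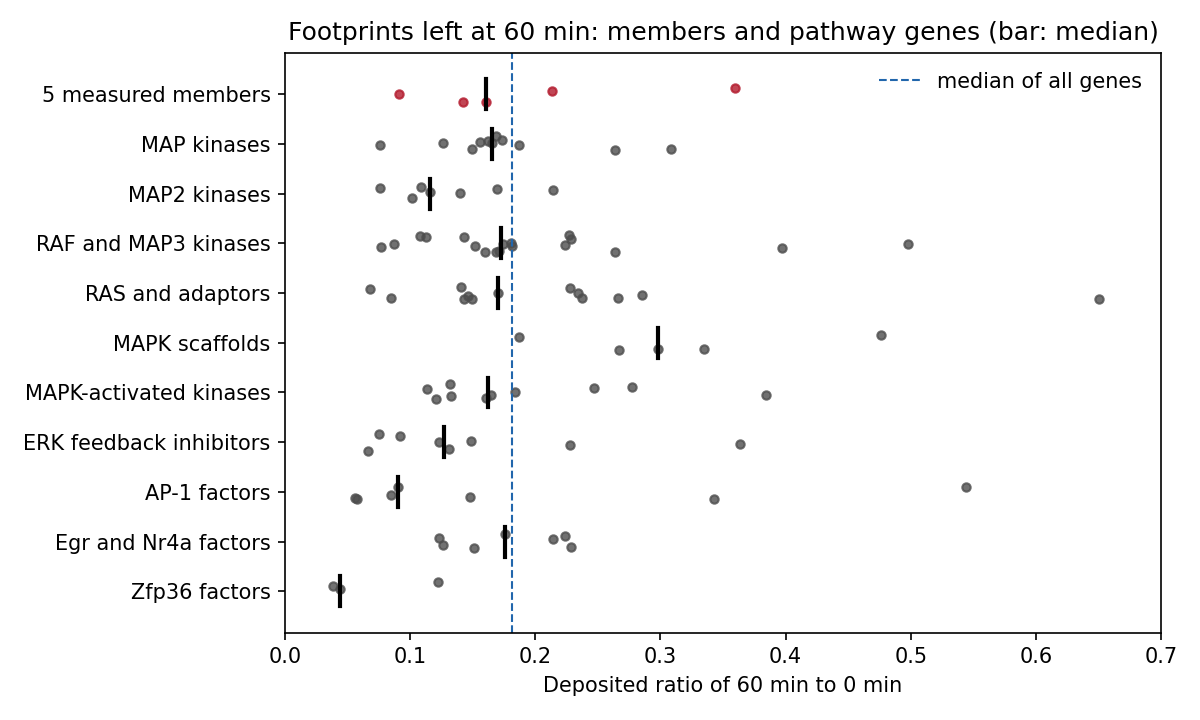
Ratio of the 60 min to the 0 min deposited signal for the 5 measured phosphatase genes (red) and for genes of 10 other lists (grey, 1 point per gene), with the median of each list as a black bar and the median of all genes, 0.181, as a dashed line. The phosphatases run from 0.0910 to 0.360 with a median of 0.160.

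AP-1, Egr and Nr4a transcription factors and the Zfp36 factors, many of them induced by the same kinases, are set beside the phosphatases. No difference was tested since genes are not replicates. The AP-1 factors had a median ratio of 0.0899 at 60 min, beside 0.181 for all genes, and 6 of 7 fell on the deposited factors, where 94.2% of all genes did. Fosb was lowest at 0.0557, and Jund, a constitutive member, highest with ratios of 0.304, 0.422, 0.502 and 0.544 and no call (adjusted p = 0.134). Egr and Nr4a factors had a median of 0.176, with 7 of 7 called, from Nr4a2 at 0.123 to Egr3 at 0.229. The Zfp36 factors, which promote mRNA decay, had a median of 0.0442, with 3 of 3 called, from Zfp36 at 0.0379 to Zfp36l2 at 0.122. Dusp1 at 0.0910 lay beside the AP-1 median. Dusp4, Dusp6 and Dusp8 at 0.160, 0.142 and 0.214 lay inside the range of the Egr and Nr4a factors. Dusp5 at 0.360 lay above all but Jund of these 17 factors. Each of these phosphatases also lay inside the wider AP-1 range.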

How the data were processed

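Build mm10 and the tools SAMtools 0.0.19, TopHat2 2.0.9, Bowtie2 2.1.0, Trimmomatic 0.32 and cutadapt 1.7.1 are named, without roles, per the submitters' processing notes, and RSEM appears in the deposited names. The authors deposited expected counts, whole as listed. They also deposited a signal, which equals the count over (coding sequence less 600 nt) in kilobases and over 1 factor per library (1, 0.965, 0.828, 0.882 and 0.973 in time order), of unstated origin. Ratios of that signal to 0 min equal the deposited ratio columns, and the deposited score columns of loss between times were not used. The second deposited table holds TPM rounded to whole numbers, treated as a score. The count table holds genes with a coding sequence of at least 603 nt and at least 11 counts at 0 min.

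Slopes used edgeR 4.0.16 in R 4.3.3 on the rounded expected counts, with 3 residual degrees of freedom, and were tested on simulated data. TMM log2 folds used a prior count of 2. Intervals are exact conditional binomial (ratios) or Poisson (levels). Alternatives were DESeq2 1.42.0, limma 3.58.1 on log2(TPM + 1), RLE factors, minutes, no filter, each library left out, a prior count of 0.5, a 25% length window and a likeness pseudocount of 2 in place of 0.5. Named genes are the phosphatases, other Dusp genes, the 3 nearest genes and the extremes of each list at 60 min. The genes and lists were chosen with earlier results of these data known. Of the 10329 transcripts, 10291 matched RefSeq (GRCm38.p6).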

Additional observations from a re-analysis of the deposited data

Results flagged for a closer look

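Among Dusp genes listed in the TPM table alone with a TPM of at least 10 at 0 min, 2 were higher at 60 min. Dusp3, also above that floor, was lower, at 220 and 111. Below that floor Dusp9 was listed at 1 and 2 at these times. Dusp19 was listed in the TPM table at 25, 45, 111, 77 and 182 in time order, 7.28 times its 0 min value at 60 min. Dusp26 was listed at 149, 0, 0, 310 and 251, 1.68 times its 0 min value at 60 min. That table gives no counts, so these values carry no counting interval, and how many reads they rest on is not known. The share of all genes that were higher at 60 min by TPM was not computed, so no rise is read from them.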

How the results depend on the processing

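Relative to other mRNAs, 0 of the 5 phosphatase slopes were called in either direction under 10 alternatives each, the range over left-out libraries being 0 to 0. On the deposited factors 5 were called lower, 0 on minutes and 2 to 5 with a library left out, and 0 to 0 higher. Over all genes, TMM-scaled calls of 1 lower and 0 higher became 38 and 36 with DESeq2's Wald test, 3 and 0 with RLE factors, 0 and 0 with limma on TPM, and 0 to 874 and 0 to 440 with a library left out. Calls on the deposited factors, 8900 lower and 0 higher, became 24 and 0 on minutes, and 4114 to 9173 and 0 to 46 with a library left out. The signs of Dusp4 and Dusp6 on the TMM scale turned on minutes (0.0021 and 0.00023 log2 units per minute, neither called) and without the 0 min library; with a library left out they ran from -0.086 to 0.22 and from -0.069 to 0.18. Genes at least 2-fold lower, 0, 0, 0 and 1 of 5 at 5, 10, 30 and 60 min, became 5, 4, 5 and 5 on the deposited factors, which keep the loss common to all mRNAs; at 5 min 1 was counted by TPM (Dusp8) and 1 with a prior count of 0.5 (Dusp4). Of 20 like-length percentiles, 20 stayed within their counting range with a 25% window. Of 25 level ranks 10 differed by TPM, and the 3 nearest genes were shared 2 of 3 for Dusp1, Dusp4 and Dusp8 with the other pseudocount. Causes of these changes other than that named were not tested. No paired analysis was possible because each time point has 1 library. Depth limits Dusp4 and Dusp5 most, with 60 to 67 and 67 to 93 counts in the treated libraries, and library scatter at any single time cannot be measured.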

Other observations

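The TPM table also listed Dusp3, an atypical phosphatase of ERK and JNK, at 220, 0, 375, 207 and 111 in time order. Dusp9 was listed at 1, 2, 3, 3 and 2, and Dusp13 at 1, 0, 0, 1 and 0. Dusp22 and Dusp27 were listed at 0 in every library. Rounding to whole numbers leaves no order among the lowest of these values.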
